A study of Mus musculus with 4 samples.

Results

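The genes described here are the subunits of the transcription factor NF-kB and the proteins that restrain it. They are a list of 10 genes taken by name: the subunits Rela, Rel, Relb, Nfkb1 and Nfkb2, the inhibitors Nfkbia, Nfkbib, Nfkbie and Nfkbiz, and the ubiquitin-editing enzyme Tnfaip3. All 10 were found among the 23995 gene symbols of the expression table, and all 10 were among the 10240 genes with an FPKM (fragments of a transcript relative to its length and to the mapped total) of at least 1 in at least 1 library. RNA-seq was performed on monocytes sorted from mouse blood in 4 libraries, 1 for each combination of genotype and subset. The control mice were Rbpj+/+ Lyz2 cre/cre and the RBP-J-deficient mice were Rbpj fl/fl Lyz2 cre/cre, so both genotypes carried the Lyz2-Cre allele, which is active in cells of the myeloid lineage. RBP-J is the DNA-binding factor through which Notch receptors act on transcription. The control libraries are titled WT in the deposited labels with the genotype Lyz2-Cre. The study used mice of 7 to 12 weeks matched for age and sex, and the number of mice behind each library is not given in the sources used here. Ly6Chi monocytes are the classical subset of the blood, and Ly6Clo monocytes are the patrolling subset.

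NF-kB is a family of dimers. Rela, Rel and Relb carry a domain that activates transcription, whereas Nfkb1 and Nfkb2 encode the precursors p105 and p100, which are processed to p50 and p52 and which, unprocessed, hold other subunits in the cytoplasm. The classical inhibitors encoded by Nfkbia, Nfkbib and Nfkbie mask the dimers until a kinase complex marks them for degradation, and several inhibitor genes are themselves switched on by NF-kB, which closes a negative feedback loop. In monocytes the pathway is best known for driving cytokine and survival genes after microbial or cytokine signals.

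With 1 library in each group there were no replicates, so no test of a difference was possible, no error can be given, and each ratio is a comparison of 2 libraries. Read depth is unknown because the values are FPKM. Rbpj, the deleted gene (chr5:53466152-53657362 of GRCm38, plus strand), had an FPKM of 8.30 in the control and 2.43 in the deficient Ly6Clo library, and of 14.4 and 2.85 in the Ly6Chi libraries. All 8 monocyte markers examined were at an FPKM of at least 1 in each library. The 9 markers of Ly6Chi monocytes summed to 938 in control Ly6Clo, 2328 in RBP-J-deficient Ly6Clo, 6686 in control Ly6Chi and 6326 in RBP-J-deficient Ly6Chi monocytes, and the 11 markers of Ly6Clo monocytes to 5103, 3817, 692 and 1278 in the same order. Both RBP-J-deficient libraries thus lay between the control subsets for both marker sums. Single markers did not all follow the sums. In RBP-J-deficient Ly6Clo monocytes Nr4a1 (65.6), Itgax (3.10), Ace (17.7) and Itgal (74.2) lay below both control subsets. For Nr4a1 the study reported similar levels in Ly6Clo monocytes of both genotypes by flow cytometry and qPCR. The FPKM of 618.2 in the control and 65.6 in the deficient Ly6Clo library, 1 library each, differs from that. Cd36 (944.7) and Pparg (372.8) lay above both there. Markers of T cells summed to at most 1.11 and those of NK cells to at most 2.80, whereas those of neutrophils summed to between 6.32 and 41.3, those of dendritic cells to between 31.3 and 196.8 and those of platelets to between 121.9 and 341.8, with the higher sums of all 3 in the Ly6Chi libraries.

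Several members have letters of the kB consensus, the degenerate motif that NF-kB dimers bind, near their start. RefSeq promoter windows of GRCm38.p6, 250 bases before to 50 after a transcription start, were found for 7 of the 10 members (10 windows, since some have several starts). The kB consensus was matched on either strand in 7 of these 10 windows, those of 5 members, Tnfaip3, Rel, Nfkbia, Nfkbie and Nfkb2, whereas 4.51% of all 32851 windows held it. The window of Rela held no match. The stretches below are shown because they set the motif in inhibitor, precursor and activating subunit genes side by side. They are 30 bases long, on the strand of the gene, and capitals mark the matched letters.
Nfkbia, chr12:55492657-55492686, minus strand: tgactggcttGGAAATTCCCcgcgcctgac
Nfkbie, chr17:45555584-45555613, plus strand: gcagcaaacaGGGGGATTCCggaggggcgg
Tnfaip3, nearer match, chr10:19015411-19015440, minus strand: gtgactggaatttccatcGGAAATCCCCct
Tnfaip3, farther match, chr10:19015516-19015545, minus strand: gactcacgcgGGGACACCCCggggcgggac
Rel, chr11:23771042-23771071, minus strand: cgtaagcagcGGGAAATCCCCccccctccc
Nfkb2, first start, chr19:46304688-46304717, plus strand: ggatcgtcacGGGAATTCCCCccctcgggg
Nfkb2, first start, nearer match, chr19:46304707-46304736, plus strand: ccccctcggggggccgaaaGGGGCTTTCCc

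The matched letters began 29 bases before the start of Nfkbia, 106 before that of Nfkbie, 12 and 125 before that of Tnfaip3, 92 before that of Rel, and 39 and 11 before the first start of Nfkb2. The core motif of RBP-J itself, TGGGAA on either strand, overlaps the letters of the kB consensus in part and is common. It was present in 25.6% of all windows and in 3 of the 10 windows, of Tnfaip3, Nfkbib and Rel. For Tnfaip3 and Nfkbib the stretches below show it in capitals, 197 and 208 bases before the start.
Tnfaip3, chr10:19015590-19015619, minus strand: ttgcatttccagTTCCCAtcaccgcgattt
Nfkbib, chr7:28766835-28766864, minus strand: ccggctcggccaTGGGAAcggggtgggggc
These matches describe letters in the windows and say nothing of binding in monocytes.

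Nfkbia was the most abundant member in each of the 4 libraries, at an FPKM of 328.7 in control Ly6Clo, 394.4 in RBP-J-deficient Ly6Clo, 198.8 in control Ly6Chi and 334.6 in RBP-J-deficient Ly6Chi monocytes. Nfkb1 was second in 3 libraries and 4th in RBP-J-deficient Ly6Clo monocytes. The lowest member was Tnfaip3 in control Ly6Clo monocytes and Relb in the other 3 libraries. Without replicates it cannot be said which neighbours in these orders differ beyond their spread.

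**Figure D1:**
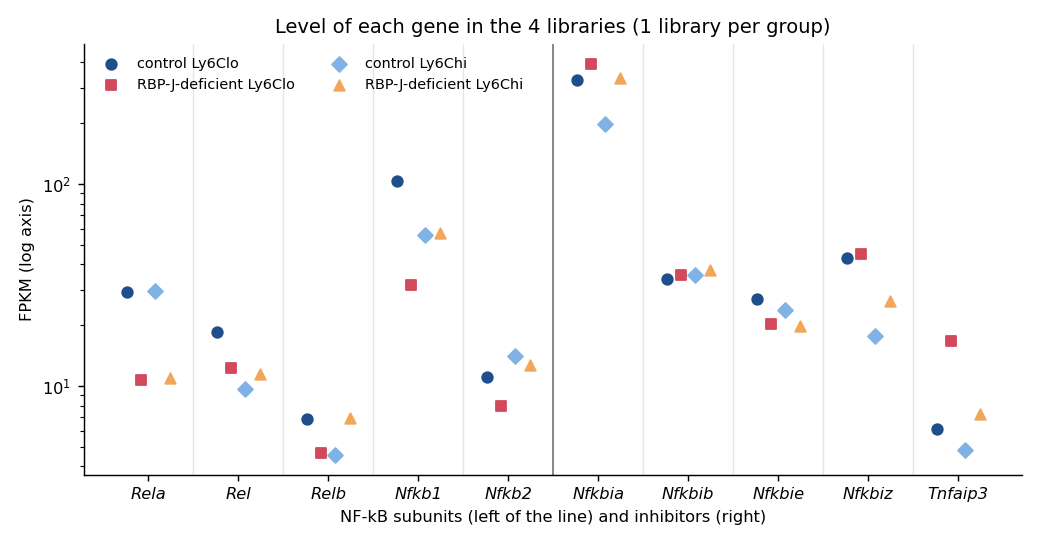
FPKM (log axis) of the 5 subunits and 5 inhibitors in the 4 libraries, 1 point per library. Nfkbia lies highest in each library, Nfkb1 spans 31.7 to 103.2, and both RBP-J-deficient points of Rela lie near 11, below both control points near 29.

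Ratios between libraries are given as the log2 ratio of (FPKM + 1), which understates differences of genes with low values, and a gene was counted as higher or lower when (FPKM + 1) differed at least 2-fold. In Ly6Clo monocytes 2 members, Nfkb1 and Rela, were lower without RBP-J, against a background of 11.1% of the 10240 expressed genes that were lower. There 1 member, Tnfaip3, was higher, against 8.97% of expressed genes. The median log2 ratio was -0.41 over the 10 members and 0.02 over the expressed genes, and the median over the members came to -0.03 after subtraction of the trend with GC content of transcripts and to -0.71 after rescaling to TPM, which gives each library the same total. All 5 subunits had negative ratios with a median of -0.55, whereas 4 of the 5 inhibitors had positive ratios and their median was 0.06. Among the positive ones Nfkbib (0.06) and Nfkbiz (0.06) lay near the median of the expressed genes. The share of expressed genes of each sign was not computed. With TPM 1 of the 5 inhibitors was positive, and after GC subtraction 4 of the 5 subunits were negative. In Ly6Chi monocytes Rela was the 1 member lower without RBP-J, against 4.56% of expressed genes, and 0 members were higher, against 2.64%. The median there was 0.15 over the members, 0.04 over the subunits and 0.51 over the inhibitors, beside 0.00 over the expressed genes. No member passed the fold thresholds of the study, 5.7 and 0.2 on (FPKM + 1), which 0.947% of expressed genes passed in Ly6Clo and 0.312% in Ly6Chi monocytes.

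**Figure D2:**
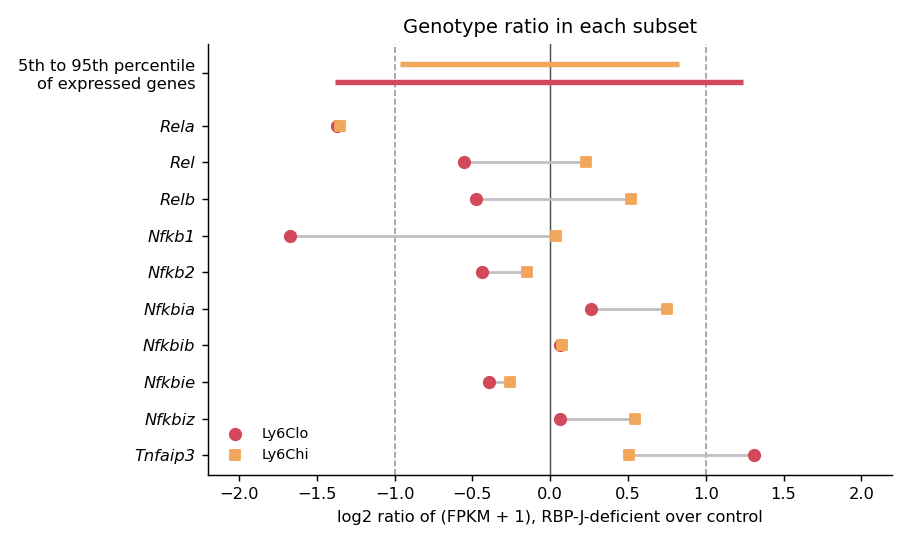
Genotype ratio (RBP-J-deficient over control, log2 scale of FPKM + 1) of each member in Ly6Clo (circles) and Ly6Chi (squares) monocytes, with dashed lines at 2-fold and bars for the 5th to 95th percentile of the expressed genes (-1.38 to 1.24 in Ly6Clo, -0.97 to 0.83 in Ly6Chi). Rela was at -1.37 in Ly6Clo and -1.35 in Ly6Chi, while Nfkb1 was low in Ly6Clo and near 0 in Ly6Chi. The 2 ratios of Rela were -0.84 and -1.08 after GC subtraction and -1.67 and -1.47 with TPM.

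Rela (chr19:5637483-5648130, plus strand) encodes p65, the activating partner in the most common NF-kB dimer. Its FPKM was 29.3 in the control and 10.7 in the deficient Ly6Clo library, and 29.5 in the control and 10.9 in the deficient Ly6Chi library. Both RBP-J-deficient libraries lay below both control libraries, and within a genotype the subsets differed little. The log2 ratio of genotypes was -1.37 in Ly6Clo and -1.35 in Ly6Chi monocytes, or 2.58-fold and 2.56-fold lower on (FPKM + 1). In Ly6Clo monocytes 5.15% of expressed genes had a lower ratio, and in Ly6Chi monocytes 1.55%.

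Rel (chr11:23736847-23770970, minus strand) encodes c-Rel, the activating subunit prominent in haematopoietic cells. Its FPKM was 18.6 in control Ly6Clo, 12.3 in RBP-J-deficient Ly6Clo, 9.68 in control Ly6Chi and 11.5 in RBP-J-deficient Ly6Chi monocytes. The control Ly6Clo library stood above the other 3, which lay close to one another. The genotype log2 ratios were -0.55 in Ly6Clo and 0.23 in Ly6Chi monocytes. Relb (chr7:19606217-19629438, minus strand), the activating partner of p52 in the non-canonical branch, was the least abundant subunit, at 6.88, 4.65, 4.55 and 6.94 in the same order. Its ratios of -0.48 and 0.52 also had opposite signs, and neither reached 2-fold. For Rel and Relb, as for the sums of the subset markers, the RBP-J-deficient Ly6Clo value lay between those of the control subsets. For Relb it lay only just above the control Ly6Chi value (4.65 and 4.55). All FPKM summed to 885649 and 711532 in these libraries, so on the TPM scale Relb lies below both control subsets. The part of subset identity in the values of Rel and Relb was not tested.

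Nfkb1 (chr3:135584655-135691547, minus strand) was the most abundant subunit gene. Its FPKM was 103.2 in control Ly6Clo, 31.7 in RBP-J-deficient Ly6Clo, 55.8 in control Ly6Chi and 57.2 in RBP-J-deficient Ly6Chi monocytes. The control Ly6Clo library was the highest and the RBP-J-deficient Ly6Clo library the lowest of the 4. The value in the latter thus lay below both control subsets. Of the 11 Ly6Clo markers, Nr4a1, Itgax, Ace and Itgal did so too, Cd36 and Pparg lay above both, and the others lay between. The part of subset identity in the Nfkb1 value was not tested. The genotype log2 ratio was -1.67 in Ly6Clo monocytes, 3.19-fold lower on (FPKM + 1), with 2.78% of expressed genes lower still. In Ly6Chi monocytes it was 0.04. The ratio in Ly6Clo minus that in Ly6Chi monocytes was -1.71, the largest such difference among the members in size, and it could not be tested.

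Nfkb2 (chr19:46304320-46312385, plus strand), the p100 precursor gene, had an FPKM of 11.1 in the control and 7.93 in the deficient Ly6Clo library, and of 14.2 and 12.7 in the Ly6Chi libraries. Its ratios were -0.44 and -0.15. Its deposited locus overlaps Psd, and reads of overlapping genes may have been shared between them. RBP-J is known to bind a kB-like site in the promoter of the human gene. Neither ratio reached 2-fold.

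Nfkbia (chr12:55489410-55492647, minus strand) encodes IkBa, the fast feedback inhibitor. The control Ly6Chi library, at 198.8, stood below the other 3 libraries, which lay between 328.7 and 394.4. Its genotype log2 ratio was 0.26 in Ly6Clo and 0.75 in Ly6Chi monocytes. The deposited locus of Nfkbia also holds Ppp2r3c, 1110008L16Rik and Psma6, so its level is uncertain to that extent. Nfkbib (chr7:28758251-28767512, minus strand), which encodes the slower inhibitor IkBb, was the steadiest member, at 33.8 in control Ly6Clo, 35.3 in RBP-J-deficient Ly6Clo, 35.6 in control Ly6Chi and 37.5 in RBP-J-deficient Ly6Chi monocytes. Its highest FPKM was 1.11 times its lowest. Its deposited locus overlaps Ccer2.

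Nfkbie (chr17:45555703-45563169, plus strand), which encodes IkBe, had an FPKM of 27.0 in the control and 20.4 in the deficient Ly6Clo library, and of 23.9 and 19.8 in the Ly6Chi libraries. It was the 1 inhibitor with negative genotype ratios in both subsets, -0.39 and -0.26. Nfkbiz (chr16:55811375-55838899, minus strand) encodes the nuclear inhibitor-like protein IkBz, which works as a cofactor of p50 at secondary response genes. It followed the subset more than the genotype, at 43.0 and 44.9 in control and RBP-J-deficient Ly6Clo monocytes and 17.7 and 26.3 in Ly6Chi monocytes. Both Ly6Clo libraries lay above both Ly6Chi libraries.

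Tnfaip3 (chr10:19000910-19015657, minus strand) encodes A20, which removes activating ubiquitin chains upstream of the kinase complex. Its FPKM was 6.15 in control Ly6Clo, 16.7 in RBP-J-deficient Ly6Clo, 4.82 in control Ly6Chi and 7.28 in RBP-J-deficient Ly6Chi monocytes. The RBP-J-deficient Ly6Clo library stood apart above the other 3, and in each subset the RBP-J-deficient library was the higher. The log2 ratio was 1.31 in Ly6Clo monocytes, 2.48-fold higher on (FPKM + 1), where 95.7% of expressed genes had a lower ratio, and 0.51 in Ly6Chi monocytes.

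Levels were next compared between the subsets within each genotype. In control mice 1 member, Nfkbiz, was at least 2-fold higher in Ly6Clo than in Ly6Chi monocytes, with a log2 ratio of 1.24 (2.36-fold), against 5.21% of expressed genes, and 0 members were lower, against 7.75%. Rel (0.88), Nfkb1 (0.87), Nfkbia (0.72) and Relb (0.51) also had positive ratios under 2-fold, and the median over the members was 0.40. In RBP-J-deficient mice 1 member, Tnfaip3, was higher in Ly6Clo monocytes, with a log2 ratio of 1.10, against 8.41% of expressed genes, and 0 members were lower, against 10.6%. That ratio was under 2-fold with a pseudocount of 5 (0.82), with TPM (0.92) and after GC subtraction (0.93), and with TPM and GC subtraction Nfkb1 was lower (-1.05 and -1.09). Nfkbiz had a ratio of 0.75 there, that of Rel was 0.09, and those of Nfkb1 and Relb were -0.83 and -0.49. The subset ratios of the genotypes and the genotype ratios of the subsets share the same 4 libraries, so they are not separate evidence.

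**Figure D3:**
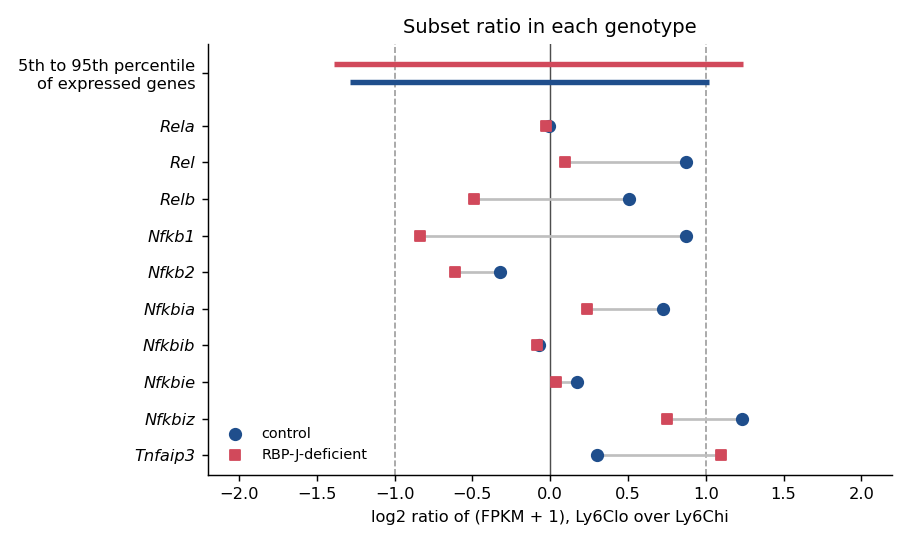
Log2 ratio of (FPKM + 1), Ly6Clo over Ly6Chi, of each member in control (circles) and RBP-J-deficient (squares) mice, with dashed lines at 2-fold and bars for the 5th to 95th percentile of the expressed genes. Rel, Relb and Nfkb1 had ratios of 0.88, 0.51 and 0.87 in control mice and of 0.09, -0.49 and -0.83 in RBP-J-deficient mice.

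Genotype ratios moved with the GC content of transcripts across the table, which bears on Rela. The longest Rela transcript has a GC content of 59.4%, and that of Nfkb1 44.9%. Among the 1521 genes of highest GC content, 26.8% were at least 2-fold lower in RBP-J-deficient Ly6Clo monocytes, and among the 1522 of lowest GC content 2.50%. In Ly6Chi monocytes these shares were 7.56% and 0.723%. After the trend was subtracted, the log2 ratio of Rela was -0.84 in Ly6Clo and -1.08 in Ly6Chi monocytes, so in Ly6Clo monocytes it no longer reached 2-fold. The ratio of Nfkb1 in Ly6Clo monocytes was -1.99 and that of Tnfaip3 1.10 after the same step. The part of GC content in the ratio of Rela was not tested.

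**Figure D4:**
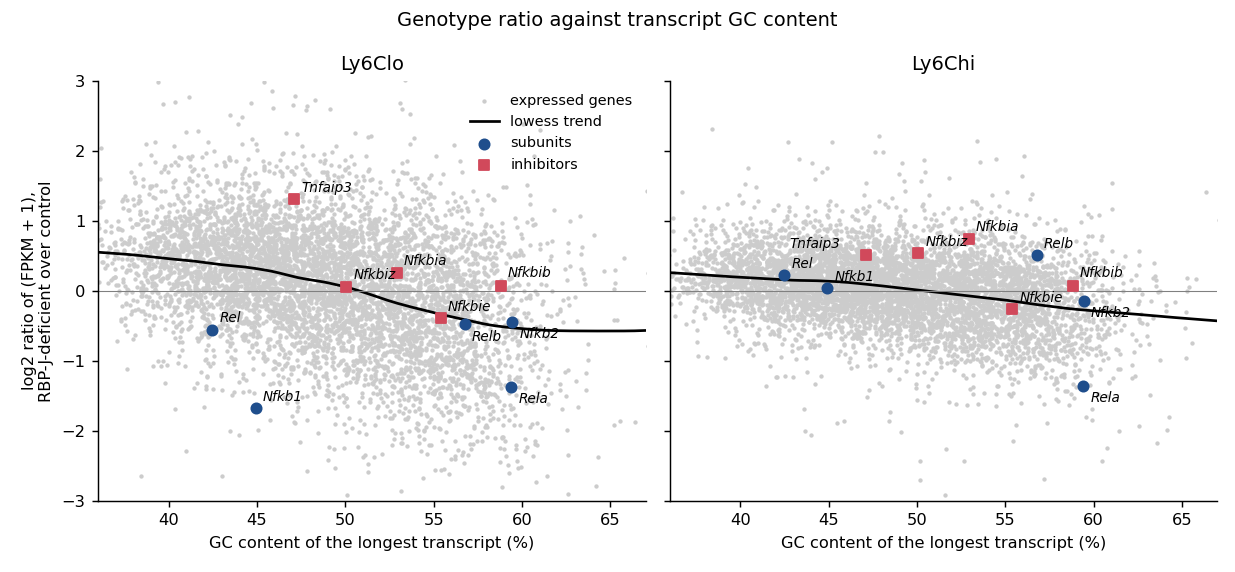
Genotype ratio (RBP-J-deficient over control, log2 scale of FPKM + 1) against the GC content (%) of the longest transcript in Ly6Clo (left) and Ly6Chi (right) monocytes for expressed genes whose mean FPKM reached 5 (grey, a few beyond the axes not drawn), the lowess trend (line), the subunits (circles) and the inhibitors (squares). In Ly6Clo monocytes Nfkb1 and Tnfaip3 lie on opposite sides of the trend at similar GC content, and in both subsets Rela lies below it at 59.4%.

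Markers of other cells moved with genotype in the Ly6Clo libraries. Of 8 B cell markers 6 were found. Cd79a had an FPKM of 9.02 in the control and 1.13 in the deficient Ly6Clo library, Cd22 had 12.9 and 0.563, and Ms4a1 had 3.27 and 0.0603. Cd79b went the other way, at 41.9 and 100.2, and Pax5 was listed at 0 in both. The 6 markers summed to 68.0 in control Ly6Clo, 102.1 in RBP-J-deficient Ly6Clo, 26.2 in control Ly6Chi and 47.2 in RBP-J-deficient Ly6Chi monocytes. Without Cd79b they summed to 26.1 in control Ly6Clo monocytes and to between 1.81 and 3.50 in the other libraries. Rel and Nfkb1, both also used by B cells, were highest in control Ly6Clo monocytes. The sum without Cd79b was also highest there, whereas the full sum was not. The part of B cell RNA in the values of Rel and Nfkb1 was not tested. The 3 red cell markers found summed to 1189 in control Ly6Clo and to between 146 and 246 in the other libraries, mostly from Hba-a2 (1171 in control and 89.4 in RBP-J-deficient Ly6Clo monocytes), while Hbb-bs went the other way (11.1 and 54.6). In RNA from a sorted population, fewer cells of a type and less RNA per cell cannot be told apart.

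Other genes of the pathway were examined by role, beside the shares of all expressed genes at least 2-fold higher or lower, 8.97% and 11.1% in Ly6Clo and 2.64% and 4.56% in Ly6Chi monocytes. With lists of 13 to 22 genes, 1 or 2 genes past 2-fold lie near the Ly6Clo shares. Of 21 expressed receptors and adaptors, RBP-J-deficient Ly6Clo monocytes had 2 at least 2-fold higher and 6 lower, with a median log2 ratio of -0.24, and in Ly6Chi monocytes 1 was higher and 0 were lower, with a median of -0.10. Among those lower were Tnfrsf1a, the main TNF receptor (102.6 in the control and 39.5 in the deficient Ly6Clo library, log2 ratio -1.35), and Myd88, the adaptor of most Toll-like receptors (126.8 and 50.8, -1.30). After GC subtraction Tnfrsf1a came to -0.99, just under 2-fold, and Myd88 to -1.09. Irak4, the kinase next to Myd88, was higher, at 39.7 and 108.7 in Ly6Clo (1.43) and at 33.3 and 71.1 in Ly6Chi monocytes (1.07). The genes of this list thus did not move one way. Of 16 genes listed as kinases and ubiquitin enzymes of the pathway, 1 was higher and 3 lower in Ly6Clo monocytes, with a median of -0.32. In Ly6Chi monocytes 0 were higher and 1 lower, with a median of -0.09. The list also holds adaptors such as Card9. Card9, the adaptor of fungal lectin receptors, was lower in both subsets, with log2 ratios of -1.23 and -1.51. After GC subtraction these were -0.81 and -1.31, so that the Ly6Clo ratio no longer reached 2-fold. Rbck1 (-1.39) and Map3k14 (-1.03), also lower in Ly6Clo monocytes, likewise came under 2-fold after GC subtraction (-0.85 and -0.52). Map3k7 was the 1 higher there, with a ratio of 1.41, or 1.10 after GC subtraction.

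Of 13 other inhibitors and cofactors, 1 was higher and 1 lower in Ly6Clo monocytes and 2 were higher and 0 lower in Ly6Chi monocytes, with medians of 0.09 and 0.15, or -0.05 and 0.06 after GC subtraction. Tnip3, a binding partner of A20, had an FPKM of 3.78 in the control and 39.0 in the deficient Ly6Clo library (log2 ratio 3.06), and of 3.11 and 9.93 in Ly6Chi monocytes (1.41). Like Tnfaip3 it was highest in the RBP-J-deficient Ly6Clo library. Nkiras2, a small protein that slows degradation of IkBb, was lower in Ly6Clo monocytes, at 7.87 and 1.62 (-1.76).

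Of 22 expressed target genes of NF-kB, RBP-J-deficient Ly6Clo monocytes had 4 higher and 2 lower, with a median of 0.27, and 4 were higher and 0 lower in Ly6Chi monocytes, with a median of 0.02. After GC subtraction these medians were 0.13 and 0.06. Clec4e, a lectin receptor, was at 92.9 in the control and 312.7 in the deficient Ly6Clo library (1.74), and Il1b, the cytokine interleukin-1 beta, was at 165.6 and 328.6 (0.98, just under 2-fold). Besides Clec4e the genes counted as higher were Cxcl2, Cxcl10 and Ier3, all at low values. They were at 0, 0.72 and 1.09 in the control and 1.23, 2.57 and 3.23 in the deficient Ly6Clo library. Slc2a6 and Bcl2l1 were lower, with ratios of -1.85 and -1.61. In Ly6Chi monocytes Cd83 was at 13.5 and 43.4 (1.61). Bcl2a1b and Bcl2a1d had ratios of 1.83 and 1.70 there, but they are near-identical copies whose reads can be split between them. In control Ly6Clo monocytes Cd83, Bcl2a1b and Bcl2a1d were at 336.7, 638.3 and 548.6, above both Ly6Chi libraries. The summed Ly6Clo markers were also higher in the RBP-J-deficient than in the control Ly6Chi library (1278 and 692). The part of subset identity in these Ly6Chi ratios was not tested. Target genes thus had ratios in both directions in Ly6Clo monocytes.

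Immediate early genes, which respond within minutes to many signals, were set beside the members. Of 18 expressed, RBP-J-deficient Ly6Clo monocytes had 1 higher and 6 lower, with a median of -0.71, and 0 were higher and 3 lower in Ly6Chi monocytes, with a median of -0.33. After GC subtraction these medians were -0.44 and -0.16. Of all expressed genes 11.1% were lower in Ly6Clo and 4.56% in Ly6Chi monocytes, and 8.97% and 2.64% were higher. Junb, an AP-1 subunit, had ratios of -2.91 and -1.93, and Zfp36, which destabilizes cytokine mRNA, -1.89 and -1.13. The part of this response in the values of the NF-kB genes was not tested.

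**Figure D5:**
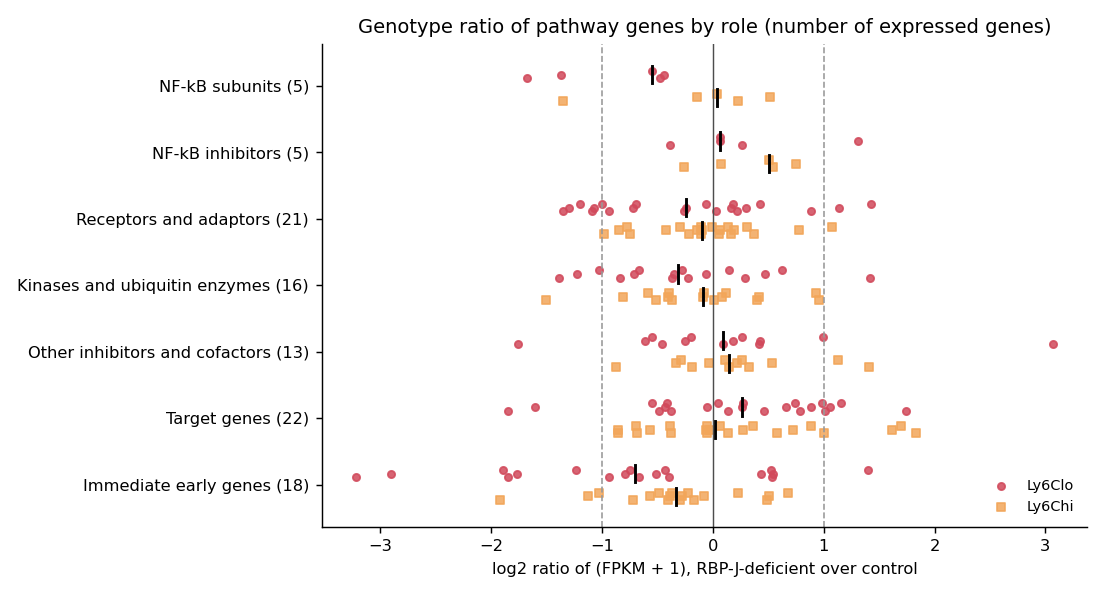
Genotype ratio (RBP-J-deficient over control, log2 scale of FPKM + 1) of expressed genes grouped by role in Ly6Clo (circles) and Ly6Chi (squares) monocytes, with the median of each group as a black bar and dashed lines at 2-fold. The medians of the subunits were -0.55 in Ly6Clo and 0.04 in Ly6Chi monocytes, those of the immediate early genes -0.71 and -0.33.

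Nfkb1 had the widest range of log2(FPKM + 1) over the 4 libraries among the members, 1.67. Of 7258 genes compared, those whose centred profile over the 4 libraries lay nearest to it were Fen1, Ube2g2, Nadk, Ctsb and Limd2, at a root mean square distance of 0.0191, 0.0621, 0.0732, 0.0880 and 0.0994 on the log2 scale. Ctsb, which encodes the lysosomal protease cathepsin B, was at 1046 in control Ly6Clo, 352.9 in RBP-J-deficient Ly6Clo, 535.0 in control Ly6Chi and 539.4 in RBP-J-deficient Ly6Chi monocytes. With 4 points per profile, near matches among so many genes are a description of these libraries.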

How the data were processed

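The authors deposited FPKM values of each gene for every pair of libraries, in the layout of Cuffdiff. The submitters' processing notes name CASAVA 1.8, TopHat2 2.1.0, Cufflinks 2.2.1 and mm10, without their settings, and the strand setting is not given in the sources used here. The methods state paired-end sequencing of total RNA on an Illumina instrument. The authors' fold changes, test statistics, p-values and q-values between single libraries were not used. Each comparison used the values given for its own pair of libraries, and rows sharing a symbol were summed (2 symbols). All 60 rows of the members had the status OK. The log2 ratio of (FPKM + 1) was computed with no test. The named genes were the members, Rbpj, subset markers, the 3 largest ratios each way per pathway list where either library reached an FPKM of 5, of which some are printed, and the 5 profiles nearest to the member of widest range. Members and lists were chosen with earlier results of these data known, and the B cell markers other than Cd79b were summed after their values were seen. Coordinates and GC contents are from GENCODE M21 (GRCm38, the build of mm10). The GC trend was a lowess curve (fraction 0.3, 3 iterations) over 6086 genes whose mean FPKM reached 5, and 94.9% of expressed genes had a GC content. The ratio, the 2-fold calls and the GC subtraction were run on simulated data with a GC content drawn at random. The planted changes were larger than any ratio of a member, so that run does not bear on calls near 2-fold. Alternatives were the pseudocount (0.1 and 5), a filter at an FPKM of 5, median centring, rescaling to TPM, the mean over all pairs, GC subtraction and the fold thresholds of the study. Python 3.11.15, numpy 2.4.6, pandas 2.3.3 and statsmodels 0.14.6 were used.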

Additional observations from a re-analysis of the deposited data

Results flagged for a closer look

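The genotype log2 ratios of 3 subunits had opposite signs in the subsets, negative in Ly6Clo and positive in Ly6Chi monocytes. The share of all expressed genes with opposite signs was not computed, so whether this count exceeds the background is unknown. The Ly6Clo ratio minus the Ly6Chi ratio was -1.71 for Nfkb1, -0.996 for Relb and -0.78 for Rel. With 1 library per group these differences were not tested. The Ly6Chi ratio of Nfkb1 was 0.04 and took a negative sign after rescaling to TPM (-0.07) and after GC subtraction (-0.10).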

How the results depend on the processing

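Of 274 recomputed ratios of single members, 252 kept their sign and their side of 2-fold, 22 did not, and no ratio past 2-fold changed sign. Of the 252, 34 came from the filter at an FPKM of 5, which leaves the ratios it keeps unchanged. Another 40 came from the mean over all pairs, which gave the main values. These alternatives therefore say nothing of how stable the ratios are. The ratio of Nfkb1 in Ly6Clo monocytes ranged from -1.99 (GC subtraction) to -1.56 (pseudocount 5), and that of Rela in Ly6Chi monocytes from -1.47 to -1.08, and both stayed past 2-fold in each alternative run. In Ly6Clo monocytes Rela came to -0.84 with GC subtraction, which left 1 member lower, and Tnfaip3 to 0.96 with a pseudocount of 5, which left 0 higher. Rescaling to TPM shifted genotype ratios of FPKM by -0.30 in Ly6Clo and -0.10 in Ly6Chi monocytes, and turned Nfkbia (-0.04), Nfkbib (-0.23) and Nfkbiz (-0.24) negative in Ly6Clo and Nfkbib (-0.02) negative in Ly6Chi monocytes. The median over the members in Ly6Clo monocytes ranged from -0.71 (TPM) to -0.03 (GC subtraction), and in Ly6Chi monocytes from 0.06 to 0.23. GC subtraction turned Nfkb2 positive (0.09 in Ly6Clo and 0.13 in Ly6Chi monocytes). Between subsets of RBP-J-deficient mice, Tnfaip3 no longer reached 2-fold with a pseudocount of 5, TPM or GC subtraction (0 members higher in each), and Nfkb1 came to -1.05 with TPM and -1.09 with GC subtraction (1 member lower in each). The median there was -0.20 with TPM, -0.014 with median centring and 0.33 with GC subtraction. Under the fold thresholds of the study 0 members were past them in each of the 4 comparisons. The causes were not tested. FPKM without read counts gives no depth, so the precision of the low members, Relb and Tnfaip3, is unknown. No paired analysis was possible because each group holds 1 library.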

Other observations

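Ratios of members within a library do not depend on how libraries are scaled to one another, and were chosen after the values were seen. The FPKM of the 5 subunits summed to 169.0 in control Ly6Clo, 67.3 in RBP-J-deficient Ly6Clo, 113.7 in control Ly6Chi and 99.3 in RBP-J-deficient Ly6Chi monocytes. Nfkbia was at 1.94, 5.86, 1.75 and 3.37 times that sum in the same order, so it was higher relative to the subunits in the RBP-J-deficient library of each subset. Nfkb1 made up 61.1%, 47.0%, 49.1% and 57.7% of the subunit sum. Nfkb1 was at 3.53, 2.95, 1.89 and 5.24 times the FPKM of Rela, so this ratio had no common order of genotypes in the subsets. GC content differs between these genes, and its part in the ratios was not tested.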
